A study of Mus musculus with 6 samples.

Results

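The peaks described here are those of the authors' ClpP comparison that share no base on the same strand, exon block by exon block, with any peak of their ClpX comparison. They numbered 4498 of the 24127 peaks of the ClpP table, or 18.6% (exact Clopper-Pearson 95% interval 18.2 to 19.1, which treats peaks as independent and covers counting error only), and lay on 3724 of its 13346 gene IDs. They are called ClpP-only peaks below, and the other 19629 ClpP peaks are called overlapping peaks. The name says that no listed ClpX peak covers the bases. It does not say that the RNA is unmethylated there in ClpX cKO cells. Which peaks were listed in both tables chose the set, so differences between ClpP-only and overlapping peaks are given as descriptions without a test.

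The study mapped N6-methyladenosine (m6A) in male mouse germ cells, labelled spermatocytes, at postnatal day 35. In all, 6 libraries were made, an immunoprecipitated (IP) and an input library from each of ClpP cKO cells, ClpX cKO cells and WT control cells, in which cKO stands for a conditional knockout made with Stra8-Cre. That Cre acts in the male germ line, so other cells of the testis keep both genes. Each comparison set the IP and input libraries of a knockout against those of WT, so the WT libraries entered both tables. With 1 library per group, no value here has a replicate error, and a call compares libraries and not genotypes in general. The labels give no strain and do not say whether WT cells carried the Cre or floxed alleles. They do not state how many animals gave each library, and the depth is unknown because read counts were not used here.

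m6A is a methyl mark that a writer complex built around METTL3 and METTL14 places on RNA in the cell nucleus. Demethylases such as FTO and ALKBH5 can remove it, and reader proteins with a YTH domain bind it and alter splicing, translation or decay of the transcript. In mammalian messenger RNA it is known for a preference for the GGAC core and for the region of the stop codon and the 3' untranslated region. Male germ cells need both its writers and its readers to pass through meiosis. ClpP is the protease and ClpX the unfoldase of the ClpXP complex in the mitochondrial matrix.

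Genome sequence under the peaks was not used here, but RefSeq promoter windows (GRCm38.p6, 250 bases before to 50 after a gene's start) reached 173 ClpP-only peaks, or 3.85%, and 1245 overlapping peaks, or 6.34%. The letters GGAC, read on the transcribed strand only, occurred 5.26 times per 1000 covered bases in ClpP-only peaks and 5.10 in overlapping peaks. In the transcribed 50 bases of all 32817 windows they occurred 4.20 times. Covered bases of a peak could also lie before the start, so these rates rest on unlike stretches and no enrichment is read from them. Of peaks that covered those 50 bases whole, 14 of 60 ClpP-only peaks (23.3%) and 140 of 702 overlapping peaks (19.9%) held the letters, as did 18.8% of all windows. The reversed complement GTCC occurred 2.73, 4.06 and 3.87 times per 1000 bases in the same order. The following stretches show how the core sits around the annotated start of a transcript in 4 ClpP-only peaks, with 1 GGAC per stretch in capitals. They were taken from 29 candidate peaks on named genes, which are not all the ClpP-only peaks that may hold it there. The 4 peaks therefore need not be those of firmest support. The Map7d2 stretch holds another GGAC, left in lower case. Counted from the annotated start, the first capital G lies at -40 (Cst8), -1 (Mmachc), 10 (Map7d2) and 11 (Abcf1). The core thus begins before the annotated start in Cst8 and Mmachc.
Mmachc: cagccctgatGGACgcatacaagc
Cst8: ttcaaggtcaGGACttacataact
Map7d2: agacaggacaGGACacagtgttca
Abcf1: cgccgctggaGGACtcttaactgc
The Mmachc stretch lies at chr4:116708373-116708396 on the minus strand and the Abcf1 stretch at chr17:35969726-35969749 on the minus strand. The Cst8 stretch lies at chr2:148798789-148798812 and the Map7d2 stretch at chrX:159459125-159459148, both on the plus strand. Mmachc handles vitamin B12 inside the cell, Cst8 is a cystatin of the male reproductive tract, Map7d2 binds microtubules and Abcf1 acts in translation initiation. None of these 4 peaks was called different between genotypes, with log2 fold changes of -0.29 (Mmachc), 0.78 (Cst8), 2.52 (Map7d2) and 0.74 (Abcf1) in the authors' deposited table. A match of 4 letters describes the window and does not show a methylated base.

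A pair of microRNA hairpins lay wholly or in part under ClpP-only peaks. Their mature RefSeq sequences are shown with the seed, bases 2 to 8, in capitals.
mmu-miR-215-5p: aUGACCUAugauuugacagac
mmu-miR-215-3p: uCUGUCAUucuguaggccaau
mmu-miR-7646-5p: aCAAGAGAacugaucagugcug
The peak of 2010103J01Rik on chromosome 1 covered 74 of the 112 bases of the Mir215 hairpin. It ended at position 185313654, inside miR-215-3p, which spans 185313647 to 185313667. The peak had a log2 fold change of 0.78 and a fold enrichment of 19.1 in the authors' deposited table. The peak of Armcx5 on chromosome X covered all 54 bases of the Mir7646 hairpin, at 3.17 and 12.3 in the same order in the authors' deposited table. The seeds differ from each other, and neither peak was called, with adjusted p of 0.675 (2010103J01Rik) and 0.515 (Armcx5) in that table.

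The labelled cell type could be checked only by which markers carry a peak. Of the spermatocyte markers 6 of 8 had a ClpP peak, and Ccna1 had a peak in neither table. All 5 spermatid and all 5 spermatogonial markers had a peak as well, as did 4 of 5 Sertoli markers. Leydig markers had a ClpP peak in 1 of 4, peritubular markers in 1 of 2 and immune and endothelial markers in 0 of 4. Markers of germ cells before, during and after meiosis and of Sertoli, Leydig and peritubular cells thus carried ClpP peaks. ClpX peaks lay on 3 of 4 Leydig markers and on 1 of 4 immune and endothelial markers. Cell purity between the libraries was not tested, and fewer cells of a type and less RNA per cell cannot be told apart in such bulk RNA.

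ClpP-only peaks were short and less firmly supported. Their summed blocks had a median of 178 bases (112 to 1133), against 361 bases in overlapping peaks, and 68.2% were at most 200 bases long, against 15.5%. Fold enrichment, read here as a linear ratio of IP over input, is given once per peak. Its median was 6.89 (10th to 90th percentile 2.22 to 15.3) in ClpP-only peaks and 8.42 (2.73 to 25.3) in overlapping peaks of the authors' deposited table. The median adjusted p of the peak itself was 0.000977 in ClpP-only peaks and 3.98e-17 in overlapping peaks of that table. An adjusted p under 0.001 was reached by 2312 ClpP-only peaks (51.4%) and by 93.1% of overlapping peaks. In 2635 ClpP-only peaks (58.6%) the pair of fold enrichment and peak p was exactly that of another peak of the set, which held for 22.3% of overlapping peaks. The ratio 10.7 alone stood in 236 ClpP-only peaks. In all, 430 different fold enrichments occurred in ClpP-only peaks, against 1364 in overlapping peaks. The number of reads behind a peak is unknown, so no precision can be given for the fold enrichment or the log2 fold change of these peaks.

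The edge of the rule is sharp in bases but not in values. The peak of Gm49250 touched a ClpX peak with a gap of 0 bases, and those of Wnt6 and Gm15512 lay 28 bases from one. Their log2 fold changes were 1.97, 0.36 and 0.48 in the authors' deposited table. Just outside the rule, the peaks of Plcl1, Zbtb41 and 3110045C21Rik shared 1 base with a ClpX peak, with 1.19, -0.17 and 2.0 in the authors' deposited table. The median gap from a ClpP-only peak to the nearest ClpX peak of the same strand was 7529 bases. A ClpX peak lay within 100 bases of 159 ClpP-only peaks (3.53%), within 500 bases of 926 (20.6%) and within 1000 bases of 1286 (28.6%). A ClpX peak on the other strand overlapped 46 of them (1.02%), and 49 shared bases with a ClpP peak named for another gene, so their gene is uncertain.

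Most log2 fold changes at ClpP-only peaks lay above 0. A positive log2 fold change is read as higher m6A enrichment in ClpP cKO than in WT cells, a direction that rests only on the table naming the knockout first. All signs below would turn were the ratio WT over knockout. The median log2 fold change was 0.98 (10th to 90th percentile -0.52 to 2.50) over ClpP-only peaks and -0.19 (-1.27 to 1.0) over overlapping peaks of the authors' deposited table. Values above 0 stood at 3548 ClpP-only peaks (78.9%) and at 40.6% of overlapping peaks. A value of at least 1 stood at 2239 ClpP-only peaks (49.8%) and at 10.1% of overlapping peaks, and a value of -1 or less at 236 (5.25%) and at 15.7%.

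**Figure D1:**
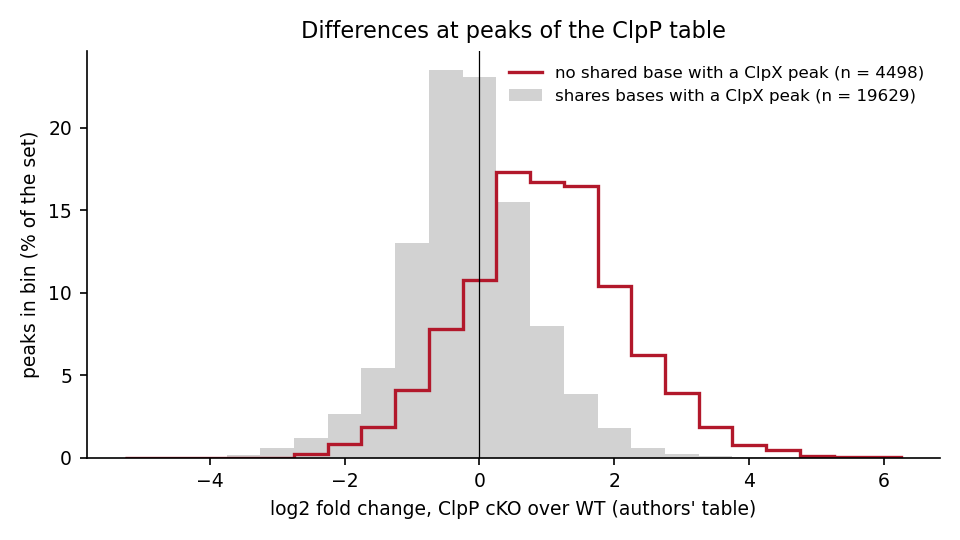
Share of peaks (percent of the set) in bins of log2 fold change, ClpP cKO over WT, for the 4498 ClpP-only peaks (red outline) and the 19629 overlapping peaks (grey). The red distribution has its median at 0.98 and the grey at -0.19.

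By the authors' adjusted p under 0.05, 529 ClpP-only peaks (11.8%) on 501 genes were called higher in ClpP cKO and 0 lower. Of all ClpP peaks, 6.74% were called higher and 12.8% lower (19.6% in all), and among overlapping peaks 1097 (5.59%) were called higher and 3096 (15.8%) lower. At an unadjusted p under 0.05 in the authors' deposited table, 863 ClpP-only peaks were higher and 1 was lower, that of Gm5671 at -2.01, against 11.7% higher and 18% lower of all ClpP peaks. At an adjusted p under 0.01, 334 ClpP-only peaks were called higher, against 979 of all ClpP peaks, which is 4.06% of that table. Under 0.1 there were 678 ClpP-only peaks, against 2162 of all, 8.96% of the table. With a log2 fold change of at least 1 as well as an adjusted p under 0.05 there were 481 ClpP-only peaks, against 1085 of all, 4.5% of the table. The rule drew on peaks called in this same contrast, so nothing is read from these shares. ClpP-only peaks made up 32.5% of the 1626 peaks called higher. Those called had a median log2 fold change of 1.82 (0.26 to 6.04), with fold enrichment at a median of 2.51, against 0.81 and 8.81 in the 3969 ClpP-only peaks that were not called. The highest value was 6.04, at the predicted gene Gm7988, and the lowest -2.49, at the chromatin ATPase gene Atad2, which was not called (adjusted p 0.436 in the authors' deposited table).

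Calls followed the support of a peak. The histogram of log2 fold changes is spread over the range of support in a scatter of all ClpP-only peaks, in which called peaks lie toward the right.

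**Figure D2:**
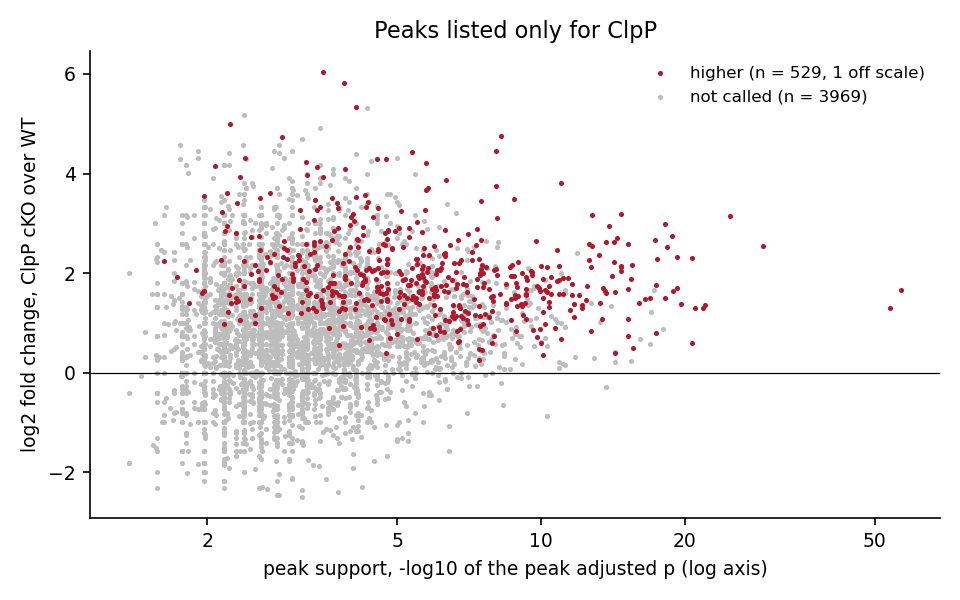
Log2 fold change of each ClpP-only peak, ClpP cKO over WT, against its support, the -log10 of the peak's adjusted p on a log axis. The 529 peaks called higher (red) lie above 0, and the 3969 not called (grey) lie on both sides of it. The mt-Rnr2 peak has no finite support value and is not drawn.

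Among the weakest peaks, with a peak adjusted p of 0.001 to 0.05, 2186 ClpP peaks (61.7%) were ClpP-only, 64 of them called higher, with a median log2 fold change of 0.77. From 1e-05 to 0.001 there were 1561 (36.9%), 166 called higher, with a median of 1.0. From 1e-10 to 1e-05 there were 628 (14.6%), 209 called higher, with a median of 1.17. Below 1e-10 only 123 ClpP-only peaks remained (1.02%), and 90 of them (73.2%) were called higher, with a median of 1.58. Overlapping peaks of that last class were called higher in 7.83% and lower in 23.7% of cases, with a median of -0.20. The share of peaks that are ClpP-only fell with support, while the median log2 fold change of those that remained rose. Support comes from the peak calls that the rule used, and the WT libraries entered both comparisons. This order is therefore a description, and nothing is read from it. Sorted by fold enrichment instead, the fifth of ClpP peaks with the lowest ratios (1.12 to 3.52) held 408 of the 529 calls, and the fifth with ratios of 10.7 to 16.7 held 1345 ClpP-only peaks with 11 calls.

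**Figure D3:**
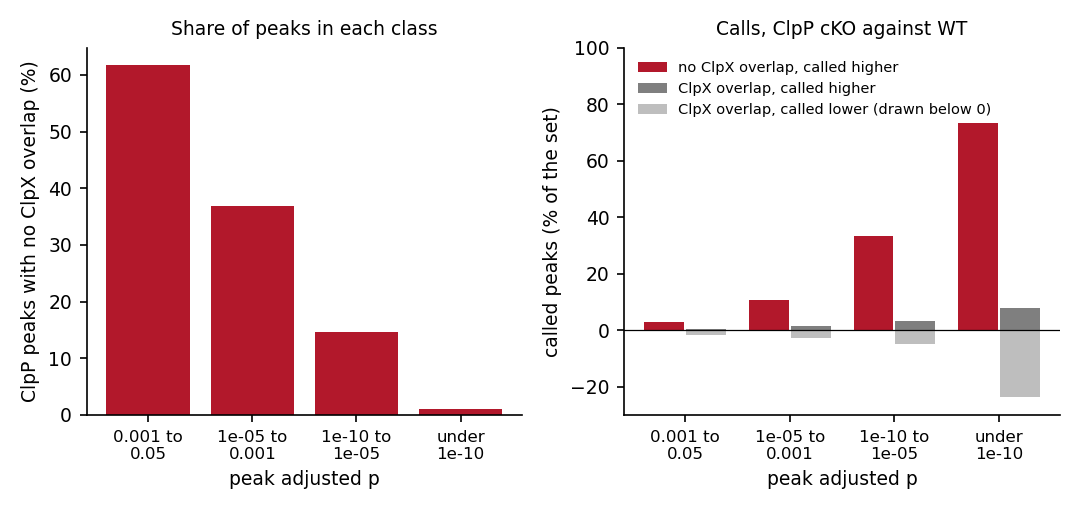
Left, the share of ClpP peaks in each class of peak adjusted p that share no base with a ClpX peak, which is 61.7% in the weakest class and 1.02% in the firmest. Right, the share of ClpP-only (red) and overlapping (grey) peaks called higher, with overlapping peaks called lower drawn below 0 in light grey. In the firmest class 73.2% of ClpP-only peaks were called higher.

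A peak of several blocks crosses exon junctions of a spliced transcript. Such peaks were no more frequent in the set, where 77.9% had 1 block against 68.6% of overlapping peaks, but they held many of its calls. Of the 289 ClpP-only peaks with 3 or more blocks 95 (32.9%) were called higher, with a median log2 fold change of 1.30. Of the 704 with 2 blocks 129 (18.3%) were called, and of the 3505 with 1 block 305 (8.70%). The same order held in overlapping peaks called higher, at 14.5%, 7.05% and 3.94%. The most blocks, 7, were in the peak of Syce1, a central element protein of the synaptonemal complex, at 0.40, which was not called in the authors' deposited table. Sart1, a splicing factor of the tri-snRNP, was called higher with 6 blocks at 1.53, and the zinc transporter Slc30a9 with 5 blocks at 2.50 in the authors' deposited table. The longest peak called higher among the 5 longest of the set was that of Aspm, a spindle pole protein, with 929 bases and 2.63 in the authors' deposited table.

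In place along the gene ClpP-only peaks resembled the overlapping ones. RefSeq gene spans matched by symbol placed 3934 ClpP-only peaks (87.5%) and 88.3% of overlapping peaks. With the span cut into 10 equal parts, the last held 39.3% of ClpP-only and 38.5% of overlapping peaks, and the first 8.26% and 7.70%. Spans include introns, so these are not parts of the spliced RNA, and the split into coding part and untranslated regions was not made. Protein-coding genes carried 87.0% of the placed ClpP-only peaks, against 91.4% of overlapping peaks. Long noncoding RNA genes carried 6.89% against 4.82%, and pseudogenes 5.16% against 2.91%.

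Whole genes were missing from the ClpX table for 1605 ClpP-only peaks (35.7%), on 1393 genes. Of these peaks 152 (9.47%) were called higher, and 37.8% lay on predicted or uncharacterised genes. The other 2893 lay on genes with a ClpX peak elsewhere, 377 of them (13%) called higher and 11.9% on predicted genes. Among named genes without any ClpX peak, those of firmest support included both mitochondrial ribosomal RNAs. The mt-Rnr2 peak (positions 1094 to 1422) had a log2 fold change of 1.65 and a fold enrichment of 1.87, and the mt-Rnr1 peak (756 to 905) had 1.67 and 1.14 in the authors' deposited table. The deposited score of the difference, the log10 of its adjusted p, was -434 for both, yet their IP enrichment over input was slight.

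The other genes of that group span several functions. Ddx25, an RNA helicase of meiotic and haploid germ cells, was called higher at 0.60 (chr9:35541817-35542026) in the authors' deposited table. Dync1i2, an intermediate chain of cytoplasmic dynein, was called at 2.29 and Supt3, a subunit of the SAGA coactivator, at 2.53 in the authors' deposited table. Cabcoco1, a ciliary calcium-binding protein, was called at 1.30 and Tex30 at 1.38 in the authors' deposited table. Bnip3l, a receptor on the outer mitochondrial membrane that marks mitochondria for autophagy, was called at 2.99 with a fold enrichment of 6.71 in the authors' deposited table. Its peak (chr14:66985239-66985598) lies at relative position 0.99 of the gene span, and no other Bnip3l peak is listed in either table.

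Genes of meiotic recombination and synapsis carried ClpP-only peaks on 19 of the 37 with any ClpP peak. Of the list's 70 ClpP peaks 25 (35.7%) were ClpP-only, against 18.6% of all peaks. Of the 25, 9 were called higher and 0 lower, against 11.8% of all ClpP-only peaks called higher. These shares over all peaks are the ones to set beside each list and family below. The whole set had 0 peaks called lower, so the same 0 in a list adds nothing. The median log2 fold change was 1.48 over the 25, of which 24 were above 0, and 0.17 over the list's overlapping peaks, against 0.98 over all ClpP-only peaks. The list was chosen with earlier results known, so these counts describe it and are no independent evidence.

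Sycp2 encodes a lateral element protein that carries the chromosome axes of the synaptonemal complex, and it gave 4 of the 9 calls. Along the minus strand of chromosome 2, with a gene span of 178345295 to 178407776, its 4 ClpP-only peaks lay on both sides of an overlapping one. The ClpP-only peak at chr2:178369374-178374953 covered 481 bases in 3 blocks and stood at 2.54, with 6.31e-16 as the adjusted p of the authors' deposited table. Those at chr2:178350862-178355055, chr2:178379400-178380915 and chr2:178381860-178383466 had 1.58, 1.38 and 1.99, with adjusted p of 1.66e-05, 0.0263 and 0.00347 in that table. The overlapping peaks of Sycp2 had 0.54 at chr2:178356521-178363438 and 1.22 at chr2:178346192-178346402 in the authors' deposited table, and neither was called. In the ClpX comparison the authors' deposited table gave -0.36 and 0.89 for the peaks at the same sites, also not called. The ClpP-only sites of Sycp2 thus all stood above its shared sites. In 80.1% of the 2156 genes with both kinds of peak the ClpP-only mean was likewise the higher. The rule chose the sites, so nothing particular to Sycp2 is read from this order.

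The other called genes of the list act at several steps of meiosis. Smc1b, the meiotic cohesin subunit, was called higher at 3.18 (chr15:85090939-85097536, adjusted p 3.98e-06) in the authors' deposited table. Its 3 overlapping peaks had -0.26, 0.96 and 1.78 there, the last also called higher. Tex12, a central element protein, had 1 peak in the ClpP table and none in the ClpX table, called at 1.63 in the authors' deposited table. Syce2, another central element protein, was called at 1.37 and Hfm1, a helicase of crossover formation, at 2.05 in the authors' deposited table. Another ClpP-only peak of Hfm1, at 1.91, was not called in that table. Ccnb1ip1, also known as HEI10, a RING protein that marks crossover sites, was called at 2.14 in the authors' deposited table. Not called were, for example, the ClpP-only peak of the axis protein Sycp3 at 0.29, those of Sycp1 of the transverse filament at 0.29 and 4.17, and those of Brca2 at 1.48 and 0.26 in the authors' deposited table.

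Of 52 ClpP peaks on genes of meiotic division and the cell cycle 6 (11.5%) were ClpP-only, and none of the 6 was called. The spindle checkpoint kinase Ttk had 1.33 with an adjusted p of 0.0501, and the checkpoint protein Mad2l1 had 1.48 with 0.112 in the authors' deposited table. Whether the lists differ was not tested.

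Spermatid genes held 23 ClpP-only peaks of 101 (22.8%, against 18.6% of all ClpP peaks), with 10 called higher and 0 lower. The median of the 23 was 1.11 (overlapping -0.09). Of all ClpP-only peaks 11.8% were called higher. Prm1, the protamine that packs sperm DNA, had the smallest adjusted p of the difference among nuclear genes of the set, 6.31e-70, at a log2 fold change of 1.29 and a fold enrichment of 1.73 in the authors' deposited table. Its overlapping peak had -0.09 and was not called. Ccdc39, which sets the spacing of dynein arms on the axoneme, was called at 1.92, while its 2 other ClpP-only peaks had 0.21 and -0.16 and were not called in the authors' deposited table. Cyct, the testis form of cytochrome c, was called at 1.23 and lacked a ClpX peak in the authors' deposited tables. Cfap43, an axonemal protein, was called at 2 peaks, at 2.64 and 2.15, and Catsper2, a subunit of the sperm calcium channel, at 1.24 in the authors' deposited table. Hook1, a linker of the manchette, was called at 1.93, the outer dense fibre protein Odf2 at 1.17 and Meig1 at only 0.26 in the authors' deposited table. Other ClpP-only peaks of Cfap43 (0.66), Hook1 (1.11 and 1.82) and Odf2 (2.22) were not called in that table. Also not called were, for example, those of Spag16 at 0.84 and -0.05 and of Izumo1 at -0.35. Of the 23 peaks, 20 were above 0.

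Of 26 ClpP peaks on genes of the piRNA pathway 5 (19.2%) were ClpP-only, near the 18.6% of all ClpP peaks, with 2 called higher and 0 lower. These were the Ddx25 peak given above, whose gene has another ClpP-only peak at 0.74 that was not called in the authors' deposited table, and a peak of Mybl1. The transcription factor Mybl1, which drives pachytene piRNA genes, was called at 3.05, and its overlapping peak at 1.09 was called too in the authors' deposited table. The Tudor-domain genes Rnf17 at 0.69 and Tdrkh at 1.54 were not called in that table. Spermatogonial genes had 4 ClpP-only peaks of 25 and no call, with Dazl at 0.93, Stra8 at 1.19, Dmrt1 at 1.18 and Rhox10 at -1.36 in the authors' deposited table.

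Somatic genes were present in the set too. Sertoli cell genes had 8 ClpP-only peaks of 33 (24.2%, against 18.6% of all ClpP peaks), all above 0, and 3 called higher. These were Tsx on the X chromosome at 2.14, the intermediate filament Vim at 1.47 and the lysosomal protease Ctsl at 1.40 in the authors' deposited table. A list for immune, endothelial, peritubular and Leydig cells had 6 of 25 (24%), with the smooth muscle myosin Myh11 called at 1.73 in the authors' deposited table. The median of the 6 was 1.62. Not called were the collagen gene Col3a1 at 1.72, the luteinising hormone receptor Lhcgr at 4.17, the growth factor receptor Pdgfra at 1.53, the steroidogenic Star at -0.06 and the complement gene C1qa at -0.26 in the authors' deposited table. The part that cell composition has in these values was not tested.

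**Figure D4:**
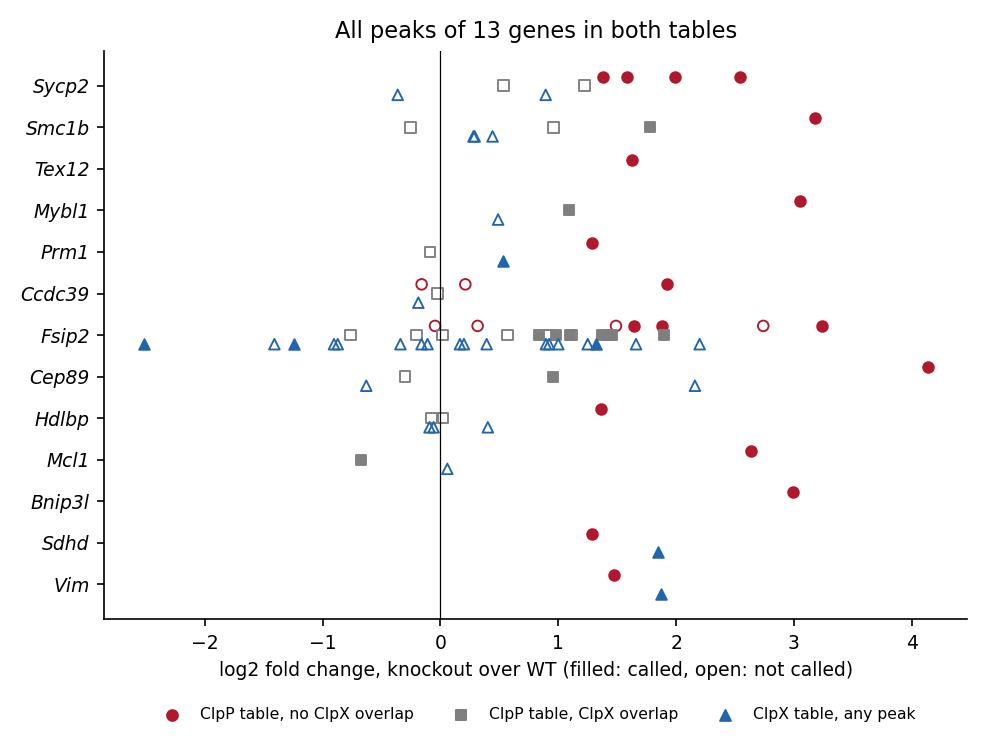
Log2 fold change, knockout over WT, of every listed peak of 13 genes: ClpP-only peaks (red circles), overlapping ClpP peaks (grey squares) and all ClpX peaks (blue triangles), filled where called. Each of the 13 genes has a ClpP-only peak called higher, so they are not typical of the set, where 88.2% of peaks were not called. The 4 Sycp2 circles lie at 1.38 to 2.54, right of its squares at 0.54 and 1.22, and the Mcl1 circle at 2.64 lies across 0 from its filled square at -0.68.

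In 2156 genes with both kinds of peak, the gene's mean over ClpP-only peaks had a median log2 fold change of 1.0 and its mean over overlapping peaks a median of -0.09. The ClpP-only mean was the higher in 1727 of them (80.1%), and the median difference within a gene was 1.08. The rule chose the sites, so the difference is a description. Mcl1, an anti-apoptotic member of the BCL2 family, had calls both ways. Its ClpP-only peak near the end of the gene (chr3:95662786-95662936) was called higher at 2.64, and its overlapping peak (chr3:95659328-95661288) was called lower at -0.68 in the authors' deposited table. Cep89, a centriolar appendage protein, was called at 4.14 at its ClpP-only peak and at 0.96 at an overlapping peak in the authors' deposited table. Hdlbp, an RNA-binding protein with many KH domains, was called at 1.36 over 5 blocks, while its overlapping peaks had 0.02 and -0.08 and were not called in the authors' deposited table. Other ClpP-only peaks of firm support or small p include those of Eprs, a dual tRNA synthetase, at 1.30, Rbm27, an RNA-binding protein, at 2.31, and Lrrcc1, a centrosomal protein, at 2.74, all called higher in the authors' deposited table. Serf1 at 1.58 and Plaat5, a phospholipid acyltransferase, at 1.21 were called higher at fold enrichments of 1.57 and 1.48 in the authors' deposited table. The plot of peaks by gene shows these values side by side with those of the ClpX comparison, which shares the WT libraries.

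On genes with a ClpP-only peak the ClpX table listed 5108 peaks, all at sites other than those of the set, with a median log2 fold change of 0.16. In ClpX cKO 10.3% of these were called higher and 5.13% lower. The 18573 ClpX peaks on other genes had a median of 0.26, with 16.4% called higher and 4.97% lower, and all ClpX peaks gave 15.1% and 5.0%, or 20.1% in either direction.

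Over all ClpP peaks 18.6% were ClpP-only, and 11.8% of these were called higher. Among mitochondrial and metabolic lists, genes for the TCA cycle and fatty acid oxidation had 10 ClpP-only peaks of 31 (32.3%), with 3 called higher and 0 lower. Fh1, the fumarase, was called at 2.36, Sucla2, a subunit of succinyl-CoA synthetase, at 0.92 and Etfdh, which passes electrons from fatty acid oxidation to ubiquinone, at 4.73 in the authors' deposited table. Mdh2 at 0.67 and the acyl-CoA dehydrogenase Acadvl at -1.32 were not called in that table. Genes of the nuclear-encoded respiratory chain had 5 of 20 (25%), with 2 called. Sdhd, an anchor subunit of succinate dehydrogenase, was called at 1.29 (chr9:50596357-50596679), and Ndufa10 of complex I at 1.23 in the authors' deposited table. The only Sdhd peak of the ClpX table lay 58 bases away and was called higher as well, at 1.85 in the authors' deposited table. Vim had likewise a ClpX peak of its own, called at 1.87, at a gap of 7529 bases. Mitochondrial dynamics and mtDNA upkeep had 7 of 42 (16.7%), with Bnip3l the 1 called. Tfam, which packs mitochondrial DNA, had 0.68 and Ppargc1a, a coactivator of mitochondrial biogenesis, 0.89 in the authors' deposited table, neither called. ClpXP and mitochondrial proteostasis genes had 3 of 34 (8.82%) and no call, with the disaggregase Clpb at 0.83 and 0.00 and the chaperonin Hspd1 at 0.00 in the authors' deposited table. Neither Clpp nor Clpx carried a ClpP-only peak.

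None of the 11 ClpP-only peaks of 84 on mTORC1 genes was called, and their median was 0.62 (overlapping -0.18). Tsc1 of the complex that restrains mTORC1 had 0.86 at 1 ClpP-only peak and -0.515 at another in the authors' deposited table. The cap-binding Eif4e had 0.62 and Rptor, the defining mTORC1 subunit, -0.26 in that table. Autophagy genes had 12 of 59 (20.3%), near the 18.6% of all ClpP peaks, with 2 called higher. Rb1cc1, a scaffold of the initiating kinase complex, was called at 1.93 with a fold enrichment of 1.35, and the lipid transfer protein Atg2b at 1.92 in the authors' deposited table. The integrated stress response had 4 of 39 (10.3%) and the lowest median of the 19 lists, -0.43. Its kinase genes Eif2ak2 and Eif2ak3 had -0.32 and 0.26, Ddit4 -0.53 and Cebpb -0.61 in the authors' deposited table. None of these 4 peaks was called there, with adjusted p of 0.574 to 0.74, so no direction is read from that median. Apoptosis genes had 5 of 35 (14.3%), with Mcl1 the 1 called.

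Of the m6A machinery's 55 ClpP peaks 7 (12.7%) were ClpP-only, and 1 was called. This was a peak of Virma, the scaffold of the writer complex, at 1.39 with an adjusted p of 0.0437, and a second ClpP-only peak of Virma at 1.13 was not called in the authors' deposited table. Among the overlapping peaks of Virma, those at -0.98 (adjusted p 1.58e-15) and -1.24 (1.32e-06) were called lower in the authors' deposited table. The meiotic reader Ythdc2 had 1.84, Fmr1, which binds methylated RNA, 2.50 and the writer subunit Zc3h13 0.19 in the authors' deposited table, with adjusted p of 0.106, 0.382 and 0.711. Translation factors had 9 of 85 (10.6%), 3 called higher. Paip2, which sequesters the poly(A)-binding protein, was called at 1.29, Paip1, which activates it, at 1.6 and the elongation factor subunit Eef1b2 at 0.68 in the authors' deposited table. Ubiquitin-proteasome genes had 9 of 50 (18%), near the 18.6% of all ClpP peaks, with the proteasome subunit Psma1 called at 2.14 in the authors' deposited table. Chromatin-modifying enzymes had 28 of 240 (11.7%), with 2 called, among them the maintenance methyltransferase Dnmt1 at 2.33 in the authors' deposited table.

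Gene families are given by name, with the share of their peaks that were ClpP-only and the calls among these. Over all ClpP peaks 18.6% were ClpP-only, and 11.8% of these were called higher. Zinc finger genes named Zfp had 182 ClpP-only peaks of 844 (21.6%), at a high median fold enrichment of 11.5, and 6 called higher. Zfp960 was called at 3.49, and Zfp597, the best supported, had 1.67 and was not called in the authors' deposited table. Protocadherins had 20 of 57 (35.1%) and 0 calls. Clustered protocadherin genes are near-identical in part, so the gene of such a peak is uncertain, and how reads were assigned was not tested. Predicted and uncharacterised genes had 949 of 4057 (23.4%) with 65 called. Testis genes named Spata or Tex had 24 of 106 (22.6%) with 7 called, and coiled-coil genes named Ccdc 56 of 250 (22.4%) with 9. Solute carriers had 46 of 297 (15.5%) with 5 called, among them the copper transporter Slc31a1 at 1.32 and the sperm anion transporter Slc26a8 at 0.88 in the authors' deposited table. RING finger genes had 20 of 119 (16.8%) with 4 called, among them Rnf168 of the DNA damage response at 3.16 and Rnf141 at 2.23 in the authors' deposited table. The whole set had 0 peaks called lower, so each family has 0 as well.

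Most genes with a ClpP-only peak had 1 (3108 genes), 495 had 2 and 121 had 3 or more. Fsip2, which encodes a fibrous sheath protein of the sperm tail, had the most, 7, scattered between 13 overlapping peaks. Its ClpP-only values ran from -0.05 to 3.24 (median 1.64) with 3 called higher, and its overlapping values from -0.77 to 1.90 (median 0.98) in the authors' deposited table. Dst, a cytoskeletal linker, had 6, from -0.74 to 1.32, with none called in the authors' deposited table. Unc13b, which primes vesicles, had 6, from -0.43 to 4.32, with 1 called in the authors' deposited table. Stag1, a cohesin subunit, had 6 rows at 4 sites and no ClpX peak, from -1.78 to 2.66, with 1 called in the authors' deposited table. Bclaf1, a transcription and splicing regulator, had 5, from 0.41 to 2.47, with 1 called in the authors' deposited table.

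By chromosome, the X had the largest share of ClpP-only peaks among the autosomes and the X, 193 of 722 (26.7%), against 18.4% on the autosomes together and 14.5% to 22.7% on each of them. Of the 193, 8 were called higher, against 529 of all 4498 ClpP-only peaks (11.8%), and the difference was not tested. Of the X-linked ClpP-only peaks 49.7% lay on genes absent from the ClpX table. Support moved with this share, since 20.1% of all X-linked ClpP peaks had a peak adjusted p of 0.001 or more, against 14.5% on autosomes. Among those weakly supported peaks 68.3% were ClpP-only on the X and 61.5% on autosomes. Its part in the X share was not tested. Of ClpX peaks 17.4% on the X and 15.7% on autosomes had no overlap in the ClpP table. The Y chromosome had 9 ClpP-only peaks of 41 and the mitochondrial genome 2 of 7.

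**Figure D5:**
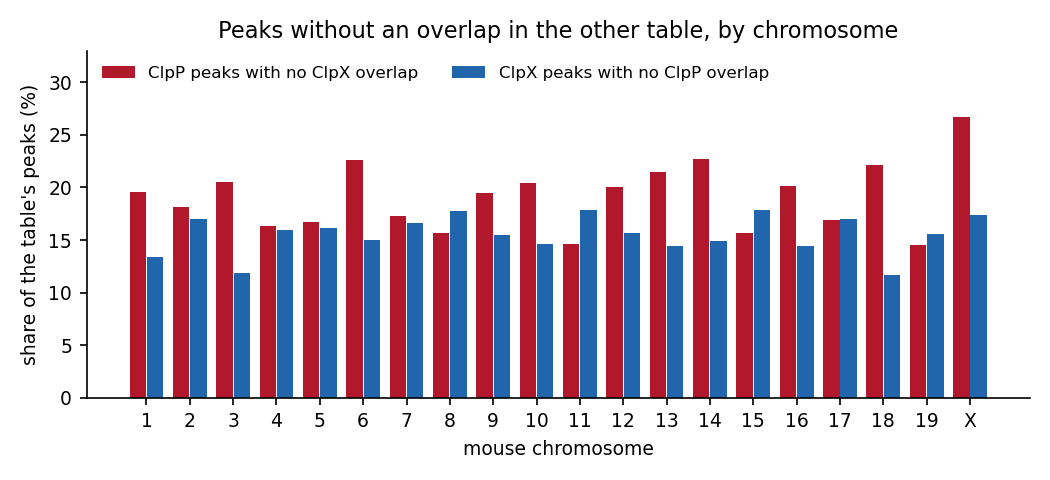
Share of ClpP peaks with no ClpX overlap (red) and of ClpX peaks with no ClpP overlap (blue), in percent of the table's peaks on each chromosome. The X has the highest red bar, 26.7%, and the autosomes lie between 14.5% and 22.7%.

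The mirror set consists of the peaks listed only in the ClpX table. It held 3734 of 23681 ClpX peaks (15.8%), with a median length of 151 bases and a median fold enrichment of 5.28 in the authors' deposited table. Its median log2 fold change, ClpX cKO over WT, was 1.22, and 81.6% of its values were above 0. Of its peaks 763 (20.4%) were called higher and 4 lower. The 2 tables share the WT libraries, and each set was chosen by peak calls of its own comparison, so the sets are not compared by a test.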

How the data were processed

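m6A-seq of ClpP cKO, ClpX cKO and WT male germ cells was analysed from the authors' deposited tables of 2 comparisons. Per the file headers, each peak has exon blocks, a p-value and scores that are log10 of the peak's p and adjusted p, a fold enrichment and a log2 fold change between genotypes with log10 scores of its p and adjusted p. Fold enrichment was taken as a linear ratio of IP over input, which its column name does not state. Coordinates are of GRCm38 (mm10), as the submitters' processing notes name it. The sources used here name no aligner, peak caller or normalisation, and do not state whether libraries kept strand. Values per library were not used, so no interval across replicates, and no count or depth, can be given.

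Blocks of both tables were compared by strand with Python 3.11.15, pandas 2.3.3 and numpy 2.4.6, and a ClpP peak with 0 shared bases was kept. The overlap code was tested on simulated blocks. Exact binomial intervals used scipy 1.17.1. Calls took the deposited adjusted p at a threshold of 0.05. RefSeq gene spans matched 91.7% of ClpP genes by symbol, and RefSeq windows and microRNAs gave the sequences. Predicted genes are those with names such as Gm or Rik.

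The members, the 19 gene lists and 17 families, the thresholds and the alternatives were chosen with earlier results of these data known. Named genes were, among ClpP-only peaks, Clpp and Clpx; the 10 of smallest peak p; the 10 called of smallest p of the difference in each direction; up to 4 per list and 2 per family by peak p; the 5 genes with most peaks; 8 on genes with no ClpX peak; the 3 nearest to the rule on each side; and the 5 longest and 5 with most blocks, leaving out predicted genes in most steps. Some genes among these are not reported here. Called members of the lists beyond these, the peaks under microRNAs and start windows, and the highest and lowest values were chosen after their values were seen. So were other peaks of the named genes and uncalled Sycp1, Sycp3, Brca2, Lhcgr, Pdgfra, Ddx25, Spag16 and Izumo1.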

Additional observations from a re-analysis of the deposited data

How the results depend on the processing

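No paired analysis was possible because each group has 1 library, and for the same reason no library could be left out. The number of ClpP-only peaks was 4479 with whole spans, 4452 on either strand, 5240 when only a peak covered by 50% counted as shared, and 4339 and 3572 when ClpX peaks within 100 and 500 bases counted as shared. It was 4009 with ClpP peaks of adjusted p under 0.01, 4212 with a fold enrichment of at least 2 and 4715 with ClpX peaks of adjusted p under 0.01. Called higher were 334 at an adjusted p under 0.01 and 678 under 0.1, against 529, and 481, 428 and 380 with log2 fold changes of 1 or more in size, the 500-base gap and the enrichment minimum. No ClpP-only peak was called lower at an adjusted p under 0.1 either. The other 4 of these 5 settings, and whole spans, only took parts of a set with 0 lower calls. Their 0 was therefore fixed in advance and adds nothing. The median log2 fold change was 1.02 after the median of all ClpP peaks (-0.03) was subtracted, against 0.98. In alternatives chosen after seeing the data, the median was 1.1 and 465 were called higher among peaks of adjusted p under 0.001, and counting peaks that share bases once gave 4451 peaks with 526 called. Of the 3934 ClpP-only peaks placed in a RefSeq span, 1266 had no ClpX peak in that span on the same strand, and 1283 lay on genes absent from the ClpX table by gene ID, which held for 1605 of all ClpP-only peaks. Depth is unknown, the direction rests on the tables' names, and a ClpX peak just short of the authors' threshold leaves a ClpP peak in the set.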
